A study of Oryza sativa Indica Group with 36 samples.

Results

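The rice cultivars 9311 and DC907 were separated without overlap by 42 annotated genes. DC907 is a cold-tolerant near-isogenic line that was bred by introducing a quantitative trait locus for cold tolerance into the cold-sensitive indica cultivar 9311. A gene was taken when its values in all 9 libraries of 9311 that had not been cooled (ACK), had been cooled for 1 day (AT1) or had recovered for 1 day after 1 day of cold (AT1H1) lay above, or all below, those in the 9 libraries of DC907 at the same 3 stages (BCK, BT1 and BT1H1), and when the means of log2(CPM + 0.1) differed by at least 2. CPM is the count of a gene divided by the total of its library and multiplied by 1000000, and a gene was kept with a CPM of at least 1 in at least 3 of the 36 libraries. Of 43254 genes listed, 40745 were annotated, 24071 annotated genes were kept, and 42 of these (0.174%) met the rule. Without the limit on the difference 45 (0.187%) did. In DC907, 17 of the 42 (0.0706% of the genes kept) were higher and 25 (0.104%) were lower. The genes were thus chosen by their CPM in these 18 libraries, and the difference between the cultivars there is given as a description without a test. Contrasts of treatments within a cultivar were not set by the rule and were tested. Those of AT1 with ACK and of BT1 with BCK, and the interactions, used the libraries by which the genes were chosen. The demand for no overlap over the 3 stages limits how far a gene can move toward the other cultivar. These tests therefore describe chosen genes. In bulk tissue, fewer cells of a type and less RNA per cell cannot be told apart.

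RNA was sequenced from stems and leaves of hydroponically grown seedlings at the four-leaf stage, with 3 libraries for each of 12 treatments. The 9311 plants (genotype label WT) were sampled as ACK, AT1, AT1H1, AT3 and AT3H1. The DC907 plants (genotype label NIL) were sampled as BCK, as BT1 with its recovery stages BT1H1 and BT1H3, and as BT3 with BT3H1 and BT3H3. In these names CK means uncooled, T and its number the days of cold at 8 ℃ (1 or 3), and H and its number the days of recovery at room temperature. All plants of a cultivar share its genotype, and DC907 is 1 line, so a difference between the cultivars is a difference between these 2 lines. The libraries held 10176660 to 18789555 counts on genes (median 16621963), and the lowest total belonged to BT1 replicate 3. The published text reports a low mapping rate for AT1 replicate 3, a library that the rule used, and its authors kept it. The identifiers of the tables carry no gene names and none of them matched the reference table, so the roles of the genes, their positions and the markers of the tissue were not analysed here.

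In a near-isogenic line, segments of a donor genome replace those of the recurrent parent and the rest of the genome is shared. Genes within such a segment can differ in their regulatory sequence, can be missing from one parent or can carry a sequence to which reads map less well. Such genes can differ between the lines in every condition, whereas a gene that responds to cold differs by condition. Lines of this kind are compared with their recurrent parent to narrow down the genes behind a trait.

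The 6 libraries labelled AT3 and AT3H1 went against their label of 9311 in these genes, and are therefore called the labelled AT3 and AT3H1 libraries. The rule did not use them. A gene was counted on the 9311 side of a library when its log2(CPM + 0.1) was nearer to the mean of the 9 libraries of 9311 than to that of the 9 libraries of DC907. Of the 42 genes, 5, 7 and 4 lay on the 9311 side in the labelled AT3 replicates 1, 2 and 3, and 9, 4 and 2 in those of AT3H1. In the 12 other DC907 libraries (BT1H3, BT3, BT3H1 and BT3H3), which the rule did not use either, 0 to 5 genes did. The counts in the labelled libraries, at 4.76% to 21.4% of the genes, overlapped with those in the 12 DC907 libraries, at 0% to 11.9%. When each of the 18 libraries of the rule was left out in turn and the genes were chosen again, 90.9% to 100% of the genes lay on the 9311 side in the 9311 library left out, and 2.33% to 18.4% in the DC907 library left out. No gene lay on the 9311 side in all 6 labelled libraries, 29 of the 42 did so in none of them, and 33 did so in none of the 12 other DC907 libraries. The labels were not changed, and the cause was not tested.

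**Figure D1:**
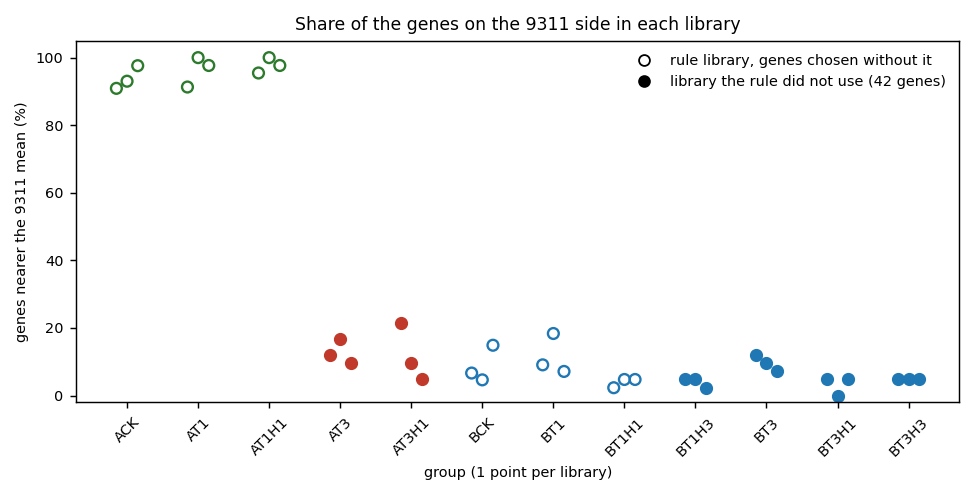
Share (%) of the genes nearer to the mean of 9311, with 1 point per library and the 12 groups along the x axis. Open points are libraries used by the rule, read on genes chosen without them, and filled points are libraries not used by the rule. The 9 ACK, AT1 and AT1H1 libraries lie between 90.9% and 100%, and the 6 labelled AT3 and AT3H1 libraries (red) lie between 4.76% and 21.4%, beside those of DC907 (blue).

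The 25 genes that were lower in DC907 were mostly without a single count there. All 25 were above 0 in each of the 9 libraries of 9311, whereas 3 to 7 of them were above 0 in a DC907 library of the rule. The count was 3 to 8 in the 12 other DC907 libraries and 5 to 7 in the labelled AT3 and AT3H1 libraries. In all 9 DC907 libraries of the rule 15 of the 25 were at 0, which allows up to 3 counts over these libraries, and 8 were at 0 in all 27 libraries outside ACK, AT1 and AT1H1. Intervals of this kind cover counting error only. Against that floor of 3 counts over the 9 libraries, the 15 genes were at least 48.7-fold to at least 561-fold lower in DC907. The median difference of the 25 genes, DC907 minus 9311 in mean log2(CPM + 0.1), was -5.07 and the range was -9.77 to -2.92.

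BGIOSGA010402 had the largest difference (-9.77). Its CPM was 58.9, 97.0 and 78.4 in ACK, 125, 79.0 and 79.5 in AT1 and 112, 123 and 94.1 in AT1H1. It had 13617 counts over these 9 libraries, 1 count over the 9 libraries BCK, BT1 and BT1H1, 1 count over the 6 labelled AT3 and AT3H1 libraries and 0 counts over the 12 other DC907 libraries. No library outside ACK, AT1 and AT1H1 came near to the level of 9311. Per length, it was also the highest of the 25 genes in 9311, at a mean of 55.5 FPKM (fragments per kilobase of coding length, scaled to the library total), against a median of 7.83 FPKM over the 25.

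BGIOSGA010541 and BGIOSGA010499 followed, with differences of -7.72 and -7.24. BGIOSGA010541 had a CPM of 44.9, 34.1 and 50.7 in ACK and of 54.7, 43.9 and 67.4 in AT1H1, against 6.86, 4.11 and 5.44 in AT1. In the 27 other libraries it had at most 0.119 CPM. BGIOSGA010499 lay between 8.82 and 27.3 CPM in the 9 libraries of 9311 and had 3 counts in those of DC907, all of them in BCK replicate 2. Both genes were at 0 in all 6 labelled AT3 and AT3H1 libraries.

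BGIOSGA013021 (-6.60), BGIOSGA040465 (-6.54) and BGIOSGA010284 (-6.07) had medians of 12.7, 12.2 and 6.48 CPM over the 9 libraries of 9311. BGIOSGA040465 ranged from 0.936 CPM in ACK replicate 1 to 18 CPM in AT1 replicate 2. In the 27 other libraries it had 1 count, in BT3 replicate 1. BGIOSGA010284 was the steadiest of the 3 in 9311, at 5.03 to 9.10 CPM. It was at 0 in all 9 DC907 libraries of the rule, at least 323-fold lower, and was at 0 in the 6 labelled libraries. BGIOSGA013021 was at a trace level in DC907 and not at 0 throughout: it reached 0.242 CPM in BT1 replicate 1 and 0.251 CPM in the labelled AT3 replicate 2.

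Not every gene of the lower group was empty in DC907. BGIOSGA006325, BGIOSGA013049 and BGIOSGA029719, the 3 just inside the difference of 2, had differences of -3.07, -3.01 and -2.92 and medians of 0.614, 0.709 and 0.728 CPM in the DC907 libraries of the rule. The groups came close for them: the highest DC907 library and the lowest 9311 library were 0.17, 0.27 and 0.16 apart on the log2 scale. The next annotated gene without overlap in this direction, just outside the difference, was BGIOSGA021085, at -1.02. No annotated gene without overlap lay between it and BGIOSGA029719.

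BGIOSGA013108 switched between libraries of the same group, and was singled out after its values were seen. In 9311 it lay between 10.2 and 23.4 CPM. In DC907 it was at 0 in all 3 BCK libraries and all 3 BT3H3 libraries, but at 4.61, 9.81 and 2.95 CPM in BT1, 0, 8.76 and 8.55 CPM in BT1H1, 20.2, 9.67 and 0 CPM in BT1H3, 7.22, 0 and 0 CPM in BT3 and 19.8, 0 and 17.9 CPM in BT3H1. The labelled AT3 and AT3H1 libraries had 7.77, 7.41, 12.2, 5.19, 0 and 16.1 CPM. Its DC907 libraries thus held either no count or a level up to that of 9311, and it met the rule by a gap of 0.05 on the log2 scale. It lay on the 9311 side in 5 of the 6 labelled libraries and in 5 of the 12 other DC907 libraries.

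BGIOSGA037863 and BGIOSGA010621 also had single libraries apart. BGIOSGA037863 (-5.71) had a median of 11.3 CPM in 9311 and was at 0 in BCK replicate 1, but had 1.59 and 6.03 CPM in BCK replicates 2 and 3. BGIOSGA010621 (-3.41), also named after its values were seen, was at 0 in 26 of the 27 libraries outside ACK, AT1 and AT1H1. The exception was the labelled AT3H1 replicate 2, with 48 counts or 2.85 CPM, above its highest 9311 library of the rule at 1.80 CPM. That library was at 0 for 20 of the 25 genes.

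**Figure D2:**
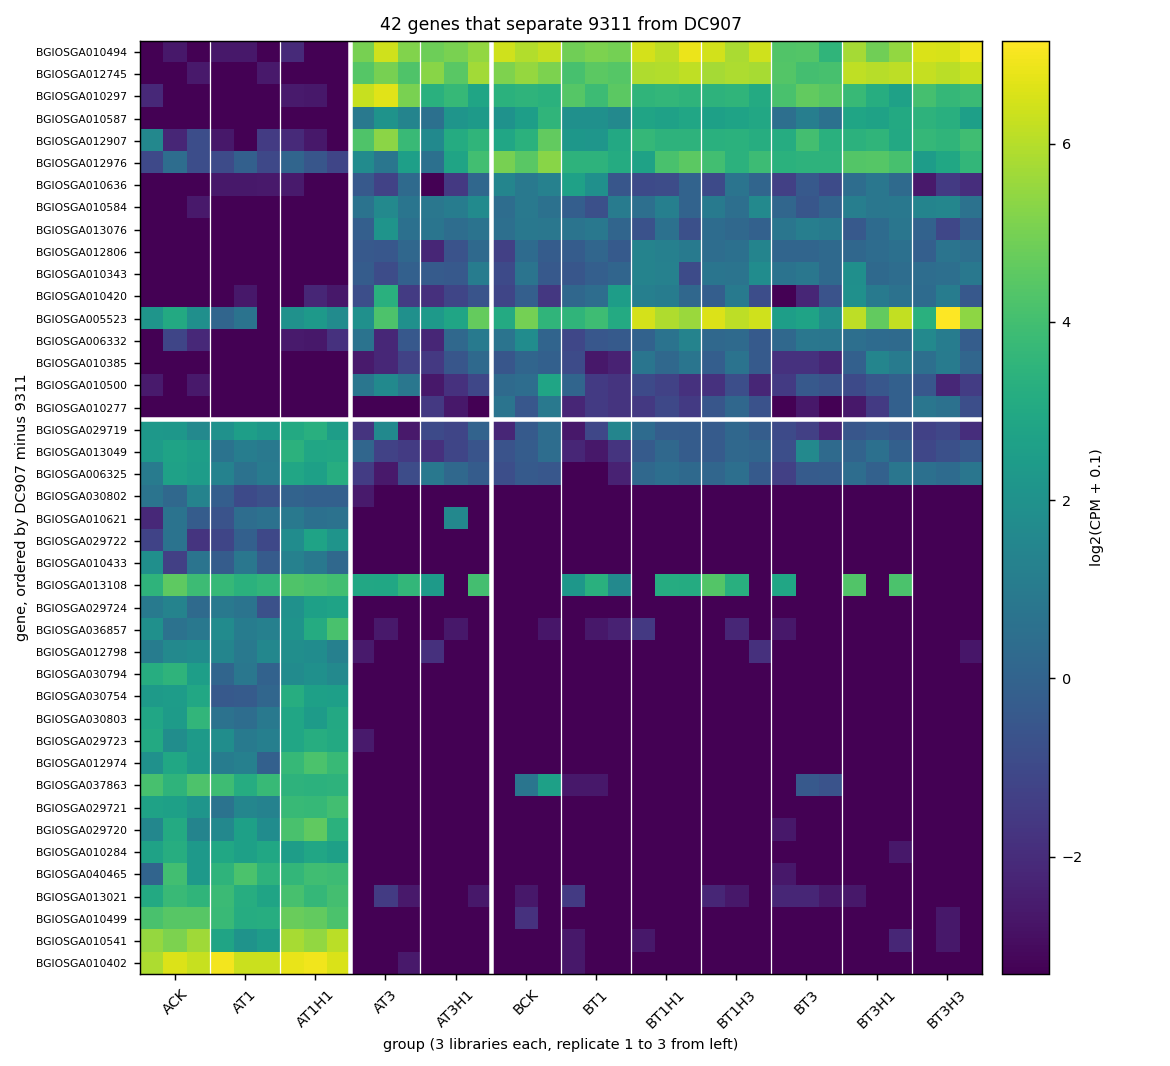
Level of the 42 genes in all 36 libraries as log2(CPM + 0.1), with genes as rows from the highest to the lowest difference and the 12 groups as columns of 3 libraries. The white horizontal line parts the 17 genes higher in DC907 from the 25 lower ones, and the thick vertical lines enclose the labelled AT3 and AT3H1 libraries, in which 2 to 9 of the 42 genes lie on the 9311 side.

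The 17 genes that were higher in DC907 had a smaller difference, with a median of 3.65 (2.38 to 8.85). In 9311, 4 to 7 of the 17 were above 0 in a library, and 6 were at 0 in all 9 libraries, which made them at least 30.2-fold to at least 286-fold higher in DC907 against 3 counts over the 9 libraries. All 17 were above 0 in each DC907 library of the rule, 15 to 17 in the 12 other DC907 libraries and 16 or 17 in the labelled AT3 and AT3H1 libraries. Their levels moved more between libraries of DC907 than those of the lower group: the median SD of log2(CPM + 0.1) over the 12 other DC907 libraries was 0.73 for the 17 genes, 0.19 for the 25 and 0.78 over all annotated genes kept. The SD of a gene at 0 is small by construction.

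BGIOSGA010494 had the largest difference (8.85). Its CPM was 84.5, 62.0 and 75.5 in BCK, 29.1, 34 and 31.5 in BT1 and 88.2, 69.6 and 116 in BT1H1, against at most 0.139 in 9311, with 5 counts over the 9 libraries. The labelled AT3 and AT3H1 libraries had 29.0 to 84.4 CPM, within the range of the other DC907 libraries (11.5 to 122 CPM). Per length it was the highest of the 17 in DC907, with a mean of 128 FPKM against a median of 4.57 FPKM over the 17.

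BGIOSGA012745 (8.36) and BGIOSGA010297 (6.76) had the same pattern. BGIOSGA012745 had 2 counts over the 9 libraries of 9311 and lay between 17.3 and 71.7 CPM in those of DC907. The labelled AT3 and AT3H1 libraries had 19.4 to 51.8 CPM. BGIOSGA010297 had 4 counts in 9311 and 10.2 to 22.8 CPM in the DC907 libraries of the rule. Its highest levels in the series, 77, 103 and 32.5 CPM, were those of the 3 labelled AT3 libraries, which all lay above every DC907 library.

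BGIOSGA010587 (5.76) was at 0 in the 9 libraries of 9311 and at 2.95 to 11.6 CPM in those of DC907, at least 286-fold higher. BGIOSGA012907 (5.09) and BGIOSGA012976 (4.58) were low and not absent in 9311. BGIOSGA012907 reached 2.87 CPM in ACK replicate 1, and its lowest DC907 library had 4.44 CPM. BGIOSGA012976 was above 0 in all 9 libraries of 9311, at 0.358 to 1.25 CPM, and at 6.56 to 38.6 CPM in the 9 of DC907. In the labelled AT3 and AT3H1 libraries it ranged from 1.34 to 15.7 CPM, and 3 of the 6 lay on the 9311 side.

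BGIOSGA010636 (3.66), BGIOSGA010584 (3.66), BGIOSGA013076 (3.65) and BGIOSGA012806 (3.52) were low in both cultivars. Their medians in the DC907 libraries of the rule were 1.77, 1.3, 1.39 and 0.987 CPM. BGIOSGA013076 and BGIOSGA012806 were at 0 in all 9 libraries of 9311, whereas BGIOSGA010636 had 4 counts there and BGIOSGA010584 had 1. The 3 genes just inside the difference of 2 were BGIOSGA010277 (2.38), BGIOSGA010500 (2.75) and BGIOSGA010385 (2.80), with medians of 0.247, 0.414 and 0.837 CPM in DC907. Just outside were the only other 2 annotated genes without overlap in this direction, BGIOSGA036809 (1.63) and BGIOSGA010396 (0.65).

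**Figure D3:**
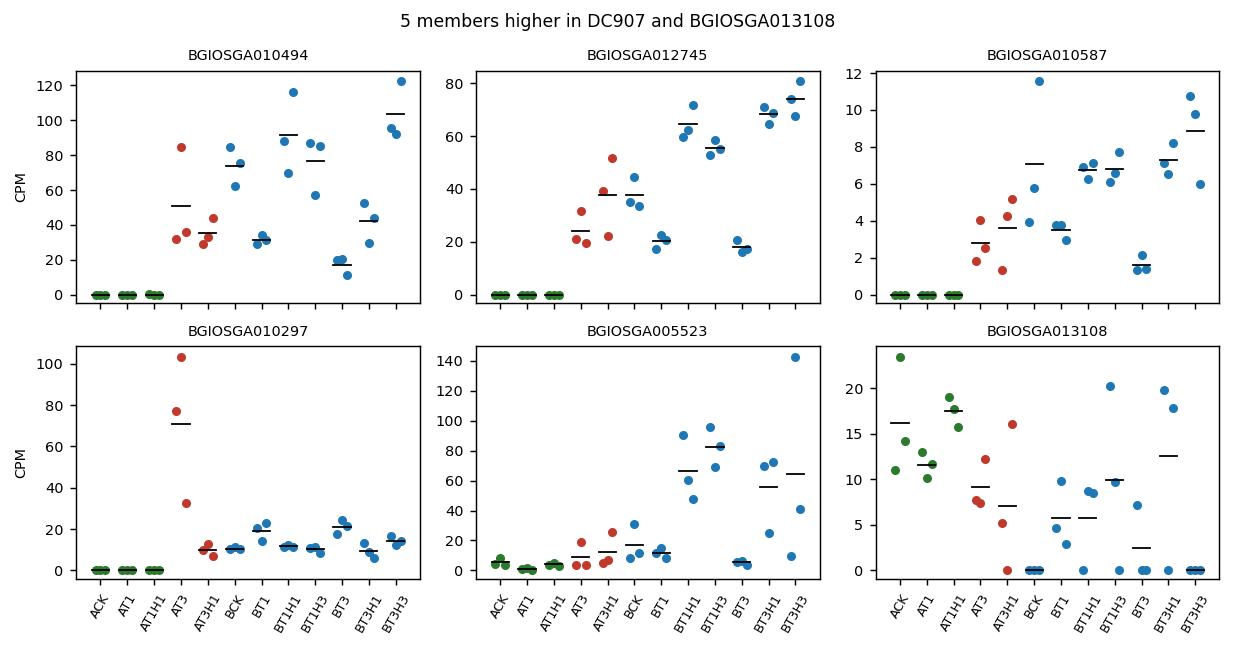
CPM per library (points) and mean of the 3 libraries (line) of 6 genes in the 12 groups, with 9311 in green, the labelled AT3 and AT3H1 libraries in red and DC907 in blue. BGIOSGA010494, BGIOSGA012745, BGIOSGA010587 and BGIOSGA010297 lie at or near 0 in ACK, AT1 and AT1H1 only, and BGIOSGA013108 is at 0 or at 2.95 to 20.2 CPM in libraries of DC907.

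Many of the 42 genes had neighbouring identifiers. With a step of at most 10 between identifier numbers, 22 of the 42 fell into 8 runs of 2 to 6 genes. The longest run was BGIOSGA029719 to BGIOSGA029724, whose 6 consecutive identifiers were all lower in DC907. The number of genes in runs was 10 with a step of 1, 15 with a step of 5, 29 with a step of 20 and 36 with a step of 50. Identifier numbers were used as an order only, since the positions of the genes were not available here.

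In the run of 6, BGIOSGA029720 (-6.00), BGIOSGA029721 (-5.81), BGIOSGA029723 (-5.59), BGIOSGA029724 (-4.54) and BGIOSGA029722 (-3.55) were at 0 in all 9 DC907 libraries of the rule. Over the 18 libraries that the rule did not use, BGIOSGA029720 had 1 count, BGIOSGA029723 had 1 count and the other 3 had none. BGIOSGA029719, at the edge of the run, kept a level of 0.0606 to 2.65 CPM in DC907. The run ended sharply at its other edge: BGIOSGA029725 had 1 count in all 36 libraries, and BGIOSGA029726 had medians of 26.4 CPM in 9311 and 19.5 CPM in DC907 (difference -0.04). Before the run, BGIOSGA029718 had a difference of -1.71, but its libraries overlapped. BGIOSGA029716, which did not pass the filter, had medians of 0.595 CPM in 9311 and 0 in DC907.

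All 6 genes of the run had a higher mean in AT1H1 than in AT1. BGIOSGA029720 had 2.81, 8.33 and 2.52 CPM in ACK, 2.89, 6.14 and 3.35 CPM in AT1 and 17.5, 24.2 and 10.2 CPM in AT1H1. BGIOSGA029722 had 0.334, 1.49 and 0.199 CPM in ACK, 0.361, 0.835 and 0.379 CPM in AT1 and 3.33, 6.65 and 4.18 CPM in AT1H1. The AT1H1 libraries lay above all ACK and AT1 libraries for BGIOSGA029720, BGIOSGA029721, BGIOSGA029722 and BGIOSGA029724, and above all AT1 libraries for BGIOSGA029723 as well. For BGIOSGA029719, AT1H1 replicate 3 (5.67 CPM) was below AT1 replicate 2 (5.84 CPM). The rule used these libraries, and the change on recovery in 9311 was not tested. The share of all genes without overlap between AT1H1 and the other groups was not computed, so the pattern cannot be called particular to the run. For another contrast, AT1 against ACK, 49.8% of all annotated genes kept did not overlap.

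BGIOSGA030754 (-5.07), BGIOSGA030794 (-5.04), BGIOSGA030802 (-3.35) and BGIOSGA030803 (-5.45) were also all lower in DC907. They were at 0 in all 21 DC907 libraries, and over the 6 labelled libraries only BGIOSGA030802 had a count, in the labelled AT3 replicate 1. BGIOSGA030754 had 5.08, 5.47 and 7.68 CPM in ACK, 0.662, 0.715 and 1.01 CPM in AT1 and 9.09, 6.12 and 5.91 CPM in AT1H1. BGIOSGA030803 moved likewise, with 7.22, 5.29 and 11.7 CPM in ACK, 1.44, 1.25 and 1.77 CPM in AT1 and 7.35, 5.29 and 7.99 CPM in AT1H1. Between BGIOSGA030794 and BGIOSGA030802, only BGIOSGA030801 passed the filter, at medians of 7.14 CPM in 9311 and 4.22 CPM in DC907.

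**Figure D4:**
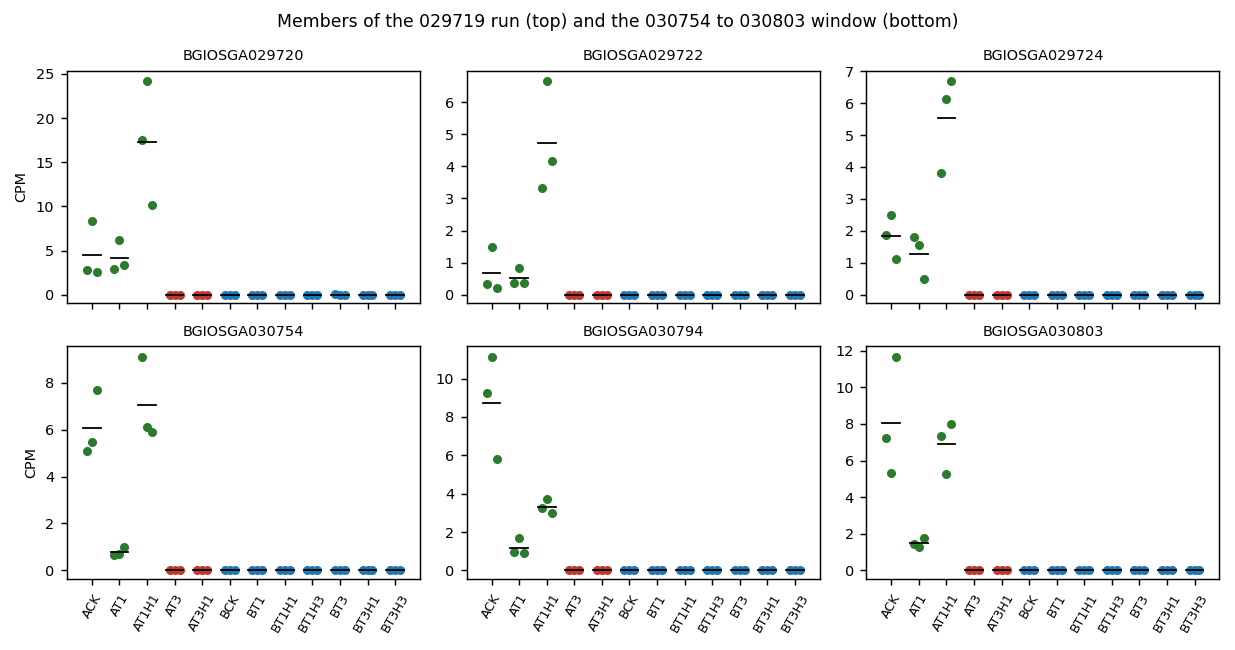
CPM per library (points) and mean of the 3 libraries (line) in the 12 groups for 3 genes of the run of 6 and 3 of the 4 genes from BGIOSGA030754 to BGIOSGA030803. The genes of the top row are highest in AT1H1, and those of the bottom row are lower in AT1 than in ACK. Outside the 3 groups in green, all are at 0 but for 1 count of BGIOSGA029720 in BT3 replicate 1.

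The other runs mostly held genes of opposite direction next to each other. BGIOSGA010499 (-7.24) and BGIOSGA010500 (2.75) have consecutive identifiers, and BGIOSGA010494 (8.85) belongs to the same run. BGIOSGA010499 had 18.3 CPM in 9311 as a median and 0 in DC907, whereas BGIOSGA010500 had medians of 0 and 0.414 CPM. BGIOSGA010497 and BGIOSGA010498, between BGIOSGA010494 and BGIOSGA010499, differed by 0.29 and -0.34. Their levels in CPM were close in the 2 cultivars, with medians of 76.7 and 73.3 for BGIOSGA010497.

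BGIOSGA012974 (-5.65) and BGIOSGA012976 (4.58) form a second such pair. BGIOSGA012974 had 3.81, 7.37 and 4.83 CPM in ACK, 1.98, 2.27 and 0.822 CPM in AT1 and 13.0, 18.3 and 13.1 CPM in AT1H1, and no count in the 27 other libraries. It was also the third of the 25 per length in 9311, at a mean of 26.4 FPKM. BGIOSGA012798 (-4.79) with BGIOSGA012806 (3.52), BGIOSGA006325 (-3.07) with BGIOSGA006332 (2.91), and BGIOSGA010277 (2.38) with BGIOSGA010284 (-6.07) were further pairs of opposite direction. BGIOSGA010584 and BGIOSGA010587 were both higher in DC907. All 5 kept genes from BGIOSGA006326 to BGIOSGA006330 were higher in DC907 on average, by 1.11 to 2.55, with overlapping libraries.

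With a step of at most 150, a value chosen after the data were seen, 38 of the 42 genes fell into 5 windows. From BGIOSGA010277 to BGIOSGA010636, 16 of 191 annotated genes kept met the rule, 10 of them higher and 6 lower in DC907. From BGIOSGA012745 to BGIOSGA013108 there were 10 of 200 (5 higher and 5 lower), from BGIOSGA030754 to BGIOSGA030803 there were 4 of 32, from BGIOSGA006325 to BGIOSGA006332 there were 2 of 8, and the run of 6 was the fifth window. Outside the windows 4 of 23634 genes (0.0169%) met the rule. These were BGIOSGA005523, BGIOSGA036857, BGIOSGA037863 and BGIOSGA040465. The windows were drawn around the members, so these shares follow from the choice. Among the other genes kept, some means also differed by at least 1. The share was 18.3%, 18.9% and 17.9% in the windows of 191, 200 and 32 genes. It was 5 of 6 genes in the window of 8, and 5.69% outside all windows. These differences come from the 18 libraries of the rule, in windows drawn after the data were seen, and the shares were not tested.

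**Figure D5:**
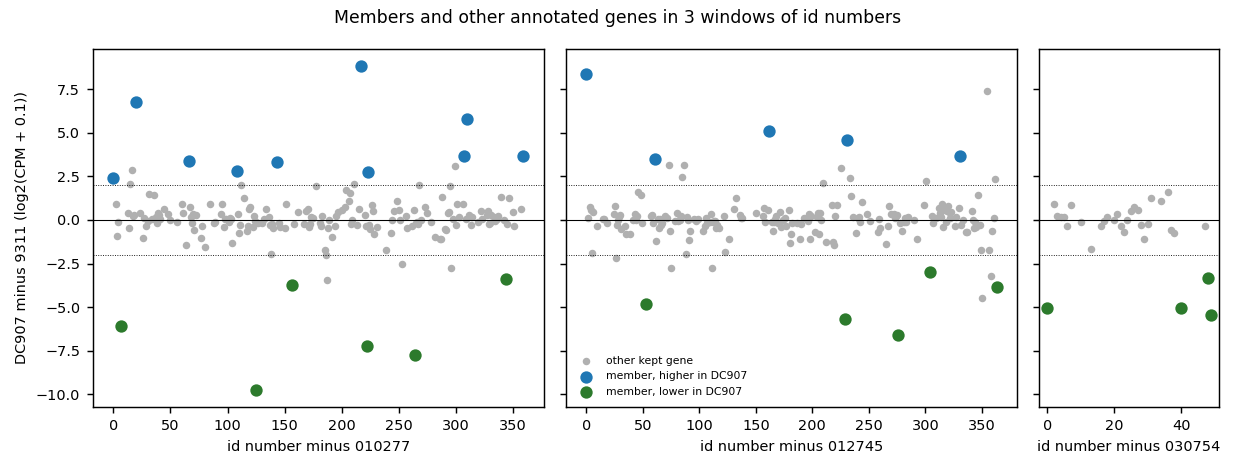
Difference of the means, DC907 minus 9311 in log2(CPM + 0.1), against the identifier number counted from the first gene of each window, for the windows of 191, 200 and 32 annotated genes kept. The 16, 10 and 4 members (large points) lie on both sides of 0 in the first and second windows and below 0 in the third, among other genes (grey) that mostly lie between the dotted lines at 2 and -2.

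At the median, the 42 genes were shorter than the other genes of the table. The coding length was 231 to 2562 bases (median 513) for the 17 genes higher in DC907 and 174 to 2943 bases (median 858) for the 25 lower ones, against a median of 1107 over the annotated genes kept. Per length, the median level of the 25 was 7.83 FPKM in 9311, and that of the 17 was 4.57 FPKM in DC907. The medians over all annotated genes kept were 11.7 and 12.4 FPKM. Among the 1875 new genes kept, a class assembled from the reads of this series, 32 (1.71%) met the same rule, with 14 higher and 18 lower in DC907. Of 31 identifiers in the published text, 3 of them without a function there, 29 belonged to genes kept. None of these was among the 42, and their differences ranged from -0.63 to 1.93 (median 0.03).

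BT3 was compared with the labelled AT3, both after 3 days of cold, in libraries that the rule did not use. The labelled AT3 and AT3H1 libraries went against their label of 9311 in these genes. Whether BT3 against the labelled AT3 compares the cultivars is therefore uncertain, as it is for BT3H1 against the labelled AT3H1. Neither test can show whether the difference between the cultivars is kept, lost or reversed after 3 days of cold. In BT3 against the labelled AT3, edgeR's quasi-likelihood test called 3 of the 42 genes (12.1% of the 27221 genes tested, 5.23% as higher and 6.83% as lower), all of them higher in DC907 under the rule and lower in BT3 here. BGIOSGA010297 had 17.5, 24.5 and 21.4 CPM in BT3 and 77, 103 and 32.5 CPM in the labelled AT3, a log2 fold change of -1.71 ± 0.42 (SE, n = 3 and 3; edgeR adjusted p = 0.0099). BGIOSGA010494 had 19.7, 20.5 and 11.5 CPM in BT3 and 31.7, 84.4 and 36.0 CPM in the labelled AT3, a log2 fold change of -1.49 ± 0.41 (edgeR adjusted p = 0.018). BGIOSGA010420 had 0, 0.119 and 0.542 CPM in BT3 and 0.469, 9.86 and 0.255 CPM in the labelled AT3 (edgeR adjusted p = 0.030), so that the groups overlapped. None of the 25 genes lower in DC907 was called, but 12 of them were at 0 in all 6 libraries and could not be called. Of the 42, 20 had fewer than 10 counts there, and these passed the filter through other groups. The absence of calls therefore says little about the lower genes. The median log2 fold change was 0 over the 42 genes, a value set by the genes at 0, and -0.09 over all genes tested.

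These 3 calls depended on single libraries. Without the labelled AT3 replicate 2 the count was 0 (1863 of all genes were called, against 3282 with all libraries), without BT3 replicate 3 it was 1 (1456 of all genes), and without the labelled AT3 replicate 1 or 3 it was 4 (3599 and 3290 of all genes). A fit of these 6 libraries alone called none of the 42, of which 16 passed the filter, but it called 0 of all 22501 genes tested.

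In BT3H1 against the labelled AT3H1, edgeR called none of the 42 genes (9.76% of all genes tested, 3.41% as higher and 6.35% as lower), and 4 had an unadjusted p under 0.05. DESeq2 called none of the 42 either (4548 of all 35998 genes). Without the labelled AT3H1 replicate 3 edgeR called 4 of the 42 and 4486 of all genes, against 2657 with all libraries. The median log2 fold change was 0 over the 42 and 0.06 over all genes, and 15 of the 42 were at 0 in all 6 libraries. BGIOSGA012745, for example, had 71.1, 64.7 and 68.8 CPM in BT3H1 and 39.2, 22.1 and 51.8 CPM in the labelled AT3H1, and did not pass the test. The levels did not overlap there, as for 16.7% of the 42 and 37.0% of all annotated genes kept.

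Within 9311, 8 of the 42 genes fell and none rose after 1 day of cold (AT1 against ACK). The test called 42.7% of all genes tested, 19.5% as higher and 23.2% as lower. Both groups are among those the rule used, though for another contrast, so these calls describe chosen genes in the libraries that chose them. Of the 42, 6 were at 0 in all 6 libraries and could not be called. BGIOSGA010541 fell from 44.9, 34.1 and 50.7 CPM in ACK to 6.86, 4.11 and 5.44 CPM in AT1, by 2.60 ± 0.60 on the log2 scale (SE, n = 3 and 3; edgeR adjusted p = 0.0023). Of the 4 genes from BGIOSGA030754 to BGIOSGA030803, 3 fell. BGIOSGA030794 went from 9.22, 11.1 and 5.83 CPM to 0.962, 1.67 and 0.885 CPM, by -2.55 ± 0.54 (edgeR adjusted p = 0.0046). BGIOSGA030754 changed by -2.56 ± 0.55 (edgeR adjusted p = 0.0047) and BGIOSGA030803 by -2.07 ± 0.56 (edgeR adjusted p = 0.015), and their AT1 libraries all lay below their ACK libraries. The 2 groups did not overlap in 28.6% of the 42 and 49.8% of all annotated genes kept. BGIOSGA012907, one of the genes higher in DC907, was at 2.87, 0.119 and 0.463 CPM in ACK and 0.0601, 0 and 0.253 CPM in AT1 (edgeR adjusted p = 0.0065). BGIOSGA005523, BGIOSGA006332 and BGIOSGA013049 were the other 3.

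The calls of BGIOSGA010541, BGIOSGA030754 and BGIOSGA030794 held in each of the 6 fits that left out 1 library of ACK or AT1. That of BGIOSGA030803 held in 3 of the 6 and not under every other setting. The number of the 42 called was 8 with all libraries (11618 of all genes). It was 4 without AT1 replicate 1 (9791 of all genes) and 5 without AT1 replicate 2 (10768 of all genes). It was also 5 in a fit of the 6 libraries alone, in which 25 of the 42 passed the filter and 6912 of all 22644 genes were called. The median log2 fold change was -0.02 over the 42 genes and -0.24 over all genes tested.

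Within DC907, 9 of the 42 genes fell and 1 rose after 1 day of cold (BT1 against BCK). The test called 39.2% of all genes tested, 17.1% as higher and 22.2% as lower. The rule used these libraries too, for another contrast, and 15 of the 42 were at 0 in all 6 libraries and could not be called. Of the 17 genes higher in DC907, 6 fell. BGIOSGA010494 fell from 84.5, 62.0 and 75.5 CPM to 29.1, 34 and 31.5 CPM, by 1.23 ± 0.40 on the log2 scale (SE, n = 3 and 3; edgeR adjusted p = 0.017). BGIOSGA010500 went from 1.13, 1.22 and 7.03 CPM to 0.970, 0.247 and 0.197 CPM (log2 fold change -2.66 ± 0.82, edgeR adjusted p = 0.013), with most of its BCK level in replicate 3. BGIOSGA010277, BGIOSGA010385, BGIOSGA012745 and BGIOSGA012976 were the others that fell.

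Of the 25 genes lower in DC907, 3 fell and 1 rose. BGIOSGA013049 fell from 0.533, 0.734 and 1.23 CPM to 0.121, 0.0617 and 0.197 CPM, by 2.70 ± 0.59 on the log2 scale (edgeR adjusted p = 0.00080). BGIOSGA006325 had 0.474, 0.673 and 0.614 CPM in BCK and 1 count in the 3 BT1 libraries (edgeR adjusted p = 0.00035). BGIOSGA037863 had 0, 1.59 and 6.03 CPM in BCK and 2 counts in BT1 (edgeR adjusted p = 0.0077). The gene that rose was BGIOSGA013108, which was at 0 in BCK (edgeR adjusted p = 0.020). It was at 0 in some libraries of BT1H1, BT3 and BT3H1 and not in others. Its call held in 4 of the 6 fits that left out 1 library. The calls of BGIOSGA006325 and BGIOSGA013049 held in all 6 fits that left out 1 library. The number of calls fell from 10 (10680 of all genes) to 5 without BCK replicate 1 (9160 of all genes). Without BCK replicate 3 or BT1 replicate 3 it was 4 (8102 and 10028 of all genes). Without BT1 replicate 1 or 2 it was 6 (8565 and 8132 of all genes). A fit of the 6 libraries alone called 3. In that fit 18 of the 42 passed the filter and 5292 of all 23183 genes were called.

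BGIOSGA013049, which is above 0 in every library of both cultivars, was called in both after 1 day of cold. Most of the 42 were at or near 0 in 1 cultivar, so few could be called in both. It fell with cold in 9311, from 5.21, 6.66 and 5.69 CPM to 1.5, 2.09 and 1.77 CPM (log2 fold change -1.36 ± 0.49, edgeR adjusted p = 0.027), and stood at 10.5, 7.24 and 7.64 CPM in AT1H1. The call in 9311 was lost in 5 of the 6 fits that left out 1 library. In BT1H1 the gene was at 0.709, 1.07 and 0.728 CPM, above all 3 BT1 libraries.

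After 3 days of cold, 5 of the 42 genes were higher and 6 were lower in BT3 than after 3 days of recovery (BT3H3). The test called 42.4% of all genes tested, 21.7% as higher and 20.7% as lower. Neither group was used by the rule. Of the 42, 13 were at 0 in all 6 libraries and 20 had fewer than 10 counts there, and these passed the filter through other groups. The 6 lower ones were all among the 17 genes higher in DC907. BGIOSGA010494 had 19.7, 20.5 and 11.5 CPM in BT3 and 95.6, 92.1 and 122 CPM in BT3H3, a log2 fold change of -2.38 ± 0.42 (SE, n = 3 and 3; edgeR adjusted p = 7.4e-05). BGIOSGA012745 had 20.6, 16.1 and 17.2 CPM against 74.2, 67.6 and 80.7 CPM, a log2 fold change of -1.83 ± 0.32 (edgeR adjusted p = 9.1e-05). BGIOSGA010587 had 1.31, 2.15 and 1.38 CPM against 10.8, 9.77 and 6.01 CPM, a log2 fold change of -2.25 ± 0.42 (edgeR adjusted p = 0.00029). For each of these genes the groups did not overlap, as for 31.0% of the 42 and 58.7% of all annotated genes kept.

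BGIOSGA005523 had 5.73, 6.62 and 3.55 CPM in BT3 and 9.95, 142 and 41.2 CPM in BT3H3 (log2 fold change -3.39 ± 0.82, edgeR adjusted p = 0.0019). BGIOSGA010277 had 1 count in the 3 BT3 libraries and 1.62, 1.40 and 0.479 CPM in BT3H3 (edgeR adjusted p = 0.0022). BGIOSGA010385 was the sixth. The calls of all 6 held in each of the 6 fits that left out 1 library of BT3 or BT3H3. The 5 genes higher in BT3 were BGIOSGA013021, BGIOSGA013049, BGIOSGA013076, BGIOSGA013108 and BGIOSGA037863, and none of their calls held in all of these fits. BGIOSGA013021, BGIOSGA013108 and BGIOSGA037863 were at 0 in all 3 BT3H3 libraries, and BGIOSGA013108 was above 0 in BT3 replicate 1 only. Without BT3H3 replicate 2 the count of calls was 7 (9476 of all genes, against 11529 with all libraries). It was also 7 in a fit of the 6 libraries alone, in which 16 of the 42 passed the filter and 11912 of all 23007 genes were called.

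BGIOSGA010494, BGIOSGA010385, BGIOSGA010277 and BGIOSGA012745 were called as lower in the cold in both tests within DC907. The rule used the libraries of BT1 and BCK. In that test their calls held in 3, 1, 1 and 2 of the 6 fits that left out 1 library. BGIOSGA012745 had 35.2, 44.7 and 33.6 CPM in BCK, 17.3, 22.6 and 20.8 CPM in BT1 and 59.7, 62.3 and 71.7 CPM in BT1H1 (BT1 against BCK: log2 fold change -0.86 ± 0.31, edgeR adjusted p = 0.031). Its levels in BT1H3 (52.8, 58.5 and 55.1 CPM) and BT3H1 (71.1, 64.7 and 68.8 CPM) were also above those of BCK. BGIOSGA005523 stood at 90.4, 60.5 and 47.8 CPM in BT1H1 and 95.8, 68.8 and 83.1 CPM in BT1H3, against 8.29, 30.8 and 11.6 CPM in BCK. In 9311 it was at 3.89, 5.05 and 3.22 CPM in AT1H1. The levels on recovery after 1 day were not tested against the controls.

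Whether the difference between the cultivars changed with 1 day of cold, or on recovery from it, was tested as an interaction. For the interaction of cultivar and cold at T1 edgeR called none of the 42 (0.00367% of all genes tested, which is 1 gene), and 4 had an unadjusted p under 0.05. At T1H1 it called none (0% of all genes), and again 4 had an unadjusted p under 0.05. DESeq2 called 69 of all genes at T1 and 161 at T1H1, and 1 of the 42 at each stage, BGIOSGA013108, which was at 0 in all 3 BCK libraries. The interactions were fitted in the libraries by which the genes were chosen, and most of the 42 were at or near 0 in 1 cultivar, where the fold change of that cultivar cannot be estimated. The absence of calls therefore says little about these genes.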

How the data were processed

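RNA-seq libraries of 12 treatments (3 each) were analysed from the deposited tables. Per the sources, the authors mapped reads of both cultivars with HISAT2 to 1 indica genome (Ensembl Plants release 41), and predicted new genes with Cufflinks and Cuffcompare. The counting program, the strand setting and the treatment of reads with several matches are not given in the sources used here, so near-identical, overlapping and antisense genes are uncertain, and a count of 0 means that no read was mapped and counted there. The authors deposited raw counts per gene and FPKM. FPKM divided by counts gave 1 length per gene, a multiple of 3 for every annotated gene kept, so lengths are coding lengths.

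CPM was computed from the counts and the column totals. The members and lists were chosen with earlier results of these data known. DEGs were called with edgeR 4.0.16 (quasi-likelihood test with Benjamini-Hochberg adjustment, TMM, filterByExpr, R 4.3.3) in 1 fit of all 36 libraries, with 1 coefficient per group and an adjusted p under 0.05. DESeq2 1.42.0 and other settings were alternatives. The SE was taken from the fold change and its F statistic (log2 scale, change over the root of F). Named genes are the 10 largest differences per direction, all genes in runs, the 5 smallest p among those called in each test and direction, and the 3 on either side of the threshold. The procedure was tested on simulated data. No 2 libraries of a group agreed within sampling noise.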

Additional observations from a re-analysis of the deposited data

How the results depend on the processing

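The tests are limited by the spread between the 3 libraries of a group. The number of genes meeting the rule was 42 to 49 when 1 of the 18 libraries was left out, 31 to 46 under the other filters, scalings and thresholds, and 23 with log2(CPM + 1) in place of log2(CPM + 0.1), all 23 among the 42. The direction of the difference of each of the 42 was kept under log2(CPM + 1), TMM and median-ratio scaling. The highest number on the 9311 side was 9 in the labelled AT3 and AT3H1 libraries and 5 in the 12 other DC907 libraries. Counting only genes at or past the closest 9311 library it was 5 and 3, and with log2(CPM + 1) it was 9 and 8. Genes in runs numbered 10, 36 and 38 with a step of 1, 50 and 150 (22 with a step of 10).

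In the order BT3 against the labelled AT3, AT1 against ACK, BT1 against BCK and BT3 against BT3H3, the number of the 42 called was 3, 8, 10 and 11, and 0, 5, 3 and 7 in fits of only the groups compared, where fewer of the 42 passed the filter and the first of these tests called 0 of all genes. With 1 library left out it was 0 to 4, 4 to 7, 4 to 8 and 7 to 12, and 0 to 4 in BT3H1 against the labelled AT3H1 (0 with all libraries). DESeq2 called 6 in BT3 against the labelled AT3 (5062 of all 35998 genes). It called 1 in each interaction (69 and 161 of all genes), where edgeR called 0. Without the 6 labelled AT3 and AT3H1 libraries, an alternative chosen after seeing the data, edgeR called 8, 12 and 12 in the 3 tests within a cultivar. Of all 26784 genes, these tests called 12586, 11688 and 12496. No gene of the 42 had 10 counts in every library, so that filter gave no value. Replicate numbers did not pair the libraries: deviations of libraries of like number correlated at -0.51 to 0.46, and all 3 were over 0.1 in 1 of 14 pairs of groups. With the replicate number as a block, 2, 8, 9 and 10 were called in the same order of tests. Of all 27221 genes, these tests called 2972, 11578, 10436 and 11385. None of the 42 was called in BT3H1 against the labelled AT3H1 (2508 of all genes) or in the interactions (3 and 0 of all genes).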
